A study of Oryza sativa with 3 samples.

Results

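The rice precursors osa-MIR156a, osa-MIR156b, osa-MIR156c, osa-MIR156d, osa-MIR156e, osa-MIR156f, osa-MIR156g, osa-MIR156h, osa-MIR156i and osa-MIR156j, written below without their prefix, give miR156, the miRNA that holds back the shift from the juvenile to the adult phase. They were taken by name from the alignments, and each distinct sequence was counted a single time per library. All 10 had reads, among 754 precursors with a read in any library, of which 516 were known and 238 were predicted. The 3 lines of japonica rice grown in field plots had 1 library each and no replicates. RNAi is a line in which OsNAR2.1, the partner protein of high-affinity nitrate transporters, is silenced by RNA interference. Ov199 is a pUbi-OsNAR2.1 line, in which the Ubi promoter, active in most plant tissues, drives OsNAR2.1. NP is the wild type Nipponbare, which carries no transgene. RNA of leaves, flowers and stems taken when the plants bloomed was pooled for each library, so a difference in level within a tissue and a difference in the mix of tissues cannot be told apart. The transgenic lines are 1 line each, and the number of plants per pool is not given in the sources used here. The files hold reads at miRNA precursors and not at mRNAs, so the level of OsNAR2.1 was not analysed here.

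A plant miRNA is cut by DICER-LIKE1 from the stem of a folded precursor as a duplex, with one strand from the 5′ side of the hairpin (5p) and one from the 3′ side (3p). Usually one strand is loaded into an ARGONAUTE protein and the other is lost. AGO1, which takes up most miRNAs, favours strands that begin with U. The miR156 guide strand pairs with mRNAs of SPL (SQUAMOSA promoter-binding protein-like) transcription factors and represses them. High miR156 marks young plants, and in rice miR156 and SPL genes also act on tillering and panicle branching. miR529 targets part of the same SPL genes, and miR172, which represses AP2-like factors, accumulates as miR156 declines.

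The sequences of the 5p arm are shown because the members share them and their ends decide which precursors a read can come from. They are written 5′ to 3′ as read, with T for U, and the seed (bases 2 to 8) is in capitals.
20-nt species, at all 10 precursors: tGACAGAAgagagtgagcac
21-nt species, at MIR156d, f, h and j: tTGACAGAagagagtgagcac
22-nt species, at MIR156f, h and j: gTTGACAGaagagagtgagcac
21-nt species with G first, at MIR156a, e and i: gTGACAGAagagagtgagcac
19-nt species, at all 10 precursors: gACAGAAGagagtgagcac
The 5 sequences end at the same base and differ in where they begin. The base just before the 20-nt species is T in MIR156d, f, h and j, G in MIR156a, e and i, and C in MIR156b, c and g, so a read that is 1 base longer separates the precursors into 3 sets while the 20-nt species does not. The seed moves with the first base, so the 20-nt and 21-nt species have the seeds GACAGAA and TGACAGA.

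The most read 3p sequence of each precursor is shown because this arm differs between members and can therefore be assigned to them.
MIR156c and MIR156g: gCTCACTTctctctctgtcagc
MIR156d: gCTCACTCctctttctgtcacc
MIR156f and MIR156h: gCTCACTTctctttctgtcagc
MIR156b: gCTCACTCtctatctgtcagc
MIR156i: gCTCACTGctctgtctgtcatc
MIR156e: gCTCACTGctctttctgtcatc
MIR156j: tGCTCGCTcctctttctgtcag
MIR156a had no 3p read. The 3p sequences of MIR156c, f, g and h share the seed CTCACTT, those of MIR156b and d share CTCACTC, and those of MIR156e and i share CTCACTG. The sequence of MIR156f and MIR156h also aligned at MIR156l, a precursor outside the set described here, and reads of MIR156f and MIR156h were identical throughout, so these precursors could not be separated.

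The files held 62724 aligned reads for RNAi, 94154 for Ov199 and 49341 for NP. Normalized counts are reads per 1000000 aligned reads, so that 1 read was worth 15.9 normalized counts in RNAi, 10.6 in Ov199 and 20.3 in NP. The limit that a count of 0 allows, taken as 3 reads, was 47.8 in RNAi, 31.9 in Ov199 and 60.8 in NP. Intervals cover the counting error of reads only. PCR reads are not independent molecules, so intervals and tests can understate the error, and the spread between plants of a line is unknown. Differences were tested by a two-sided Fisher's exact test, adjusted after Benjamini and Hochberg over all precursors or all sequences tested, which sets one library against another and says nothing of the spread between plants.

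The miR156 family took about 2 times as large a share of the aligned reads in both transgenic lines as in the wild type. It had 520 reads in RNAi, 732 in Ov199 and 208 in NP, in 51, 64 and 46 distinct sequences and 106 in any library. These were 0.829% of the aligned reads in RNAi (95% Wilson interval 0.761 to 0.903), 0.777% in Ov199 (0.723 to 0.836) and 0.422% in NP (0.368 to 0.483). The interval of NP lay below those of both transgenic lines, and those of RNAi and Ov199 overlapped. The ratio of normalized counts was 1.97 for RNAi against NP (95% exact interval 1.67 to 2.32), 1.84 for Ov199 against NP (1.58 to 2.16) and 1.07 for RNAi against Ov199 (0.951 to 1.19). NP is the reference of both of the first 2 ratios, which are therefore not independent. With reads scaled to the adapter-trimmed totals in place of aligned reads, the third ratio fell below 1, at 0.883.

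The higher level was clear in both transgenic lines on the 5p arm. A read was assigned to an arm when it overlapped the 20-nt species, or the most read 3p sequence of the precursor, by at least 10 nt. The 5p arm had 385 reads in RNAi, 585 in Ov199 and 123 in NP, which were 6138, 6213 and 2493 normalized counts. Its ratios were 2.46 for RNAi against NP (2.00 to 3.04), 2.49 for Ov199 against NP (2.05 to 3.05) and 0.988 for RNAi against Ov199 (0.866 to 1.13). The guide strand was above NP in both transgenic lines, while the interval between RNAi and Ov199 included 1. With the adapter-trimmed totals the last ratio was 0.818 (0.718 to 0.932) and with TMM 0.873 (0.766 to 0.995), both of which left 1 out.

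The 3p arm, which carries the passenger strands, behaved differently. It had 130 reads in RNAi, 138 in Ov199 and 78 in NP, which were 2073, 1466 and 1581 normalized counts. The ratio was 1.31 for RNAi against NP (0.983 to 1.76) and 0.927 for Ov199 against NP (0.697 to 1.24), and both intervals included 1 and lay below those of the 5p arm. RNAi was above Ov199 on this arm, with a ratio of 1.41 (1.10 to 1.81), but the interval took in 1 with the adapter-trimmed totals, at 1.17 (0.915 to 1.5), and with TMM, at 1.25 (0.976 to 1.60). The 3p arm made up 25% of the family's reads in RNAi (21.5 to 28.9), 18.9% in Ov199 (16.2 to 21.8) and 37.5% in NP (31.2 to 44.2). The interval of NP did not overlap those of the transgenic lines. Reads at other places of the precursors were 5 in RNAi, 9 in Ov199 and 7 in NP.

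**Figure D1:**
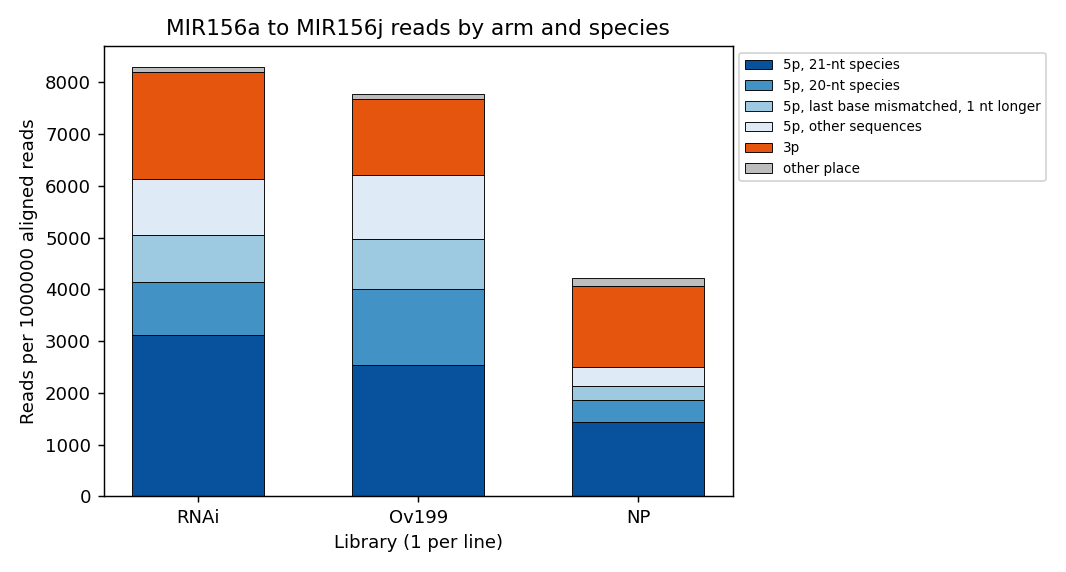
Stacked bars give reads per 1000000 aligned reads of MIR156a to MIR156j in each library, each distinct sequence counted a single time and divided by arm and by 5p species. The 5p layers (blue) add up to 6138 in RNAi, 6213 in Ov199 and 2493 in NP, and the 3p layer (orange) to 2073, 1466 and 1581.

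The 20-nt species is the most read of the sequences that aligned at all 10 precursors. It had 64 reads in RNAi, 139 in Ov199 and 21 in NP, or 1020, 1476 and 426 normalized counts. It was higher than in NP in both transgenic lines, by 2.37-fold in RNAi (adjusted p = 0.0048 by Fisher's exact test) and by 3.41-fold in Ov199 (adjusted p = 7.0e-08), where folds are on the normalized count + 10 scale. RNAi had 0.69 times the level of Ov199, and this difference did not pass the threshold (adjusted p = 0.090 by Fisher's exact test). It did pass with the scaling by TMM, at 0.61 times (adjusted p = 0.015, the range over the scalings tried being 0.0029 to 0.090).

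The 21-nt species was the most read sequence of the family in every library. It had 196 reads in RNAi, 239 in Ov199 and 71 in NP, or 3125, 2538 and 1439 normalized counts. RNAi was highest here and Ov199 lay between RNAi and NP, while the 20-nt species was highest in Ov199. Against NP the 21-nt species was 2.16-fold higher in RNAi (adjusted p = 2.19e-07 by Fisher's exact test) and 1.76-fold higher in Ov199 (adjusted p = 3.75e-04), and between RNAi and Ov199 the fold of 1.23 did not pass (adjusted p = 0.16).

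The mix of the 2 lengths differed between the transgenic lines. For each read of the 20-nt species there were 3.06 reads of the 21-nt species in RNAi, 1.72 in Ov199 and 3.38 in NP. The 21-nt species made up 75.4% of the reads of the pair in RNAi (69.8 to 80.2), 63.2% in Ov199 (58.3 to 67.9) and 77.2% in NP (67.6 to 84.6). The intervals of RNAi and Ov199 did not overlap, and those of Ov199 and NP overlapped by less than 1 percentage point. Over all 5p reads, those that began 1 base before the 20-nt species were 68.1% in RNAi, 54.7% in Ov199 and 73.2% in NP, and those that began with it were 19.2%, 32.1% and 21.1%.

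Where a 5p read could be tied to some of the precursors, it was mostly to those with T before the 20-nt species. Reads that aligned only at MIR156d, f, h or j were 72.7% of 5p reads in RNAi, 58.1% in Ov199 and 73.2% in NP. Reads that aligned at all 10 precursors were 23.9% in RNAi, 36.4% in Ov199 and 22.8% in NP. Those of MIR156a, e or i alone were 2.60%, 3.76% and 4.07%, and a single read in Ov199 was particular to the set with C before the species. The 22-nt species of MIR156f, h and j had 18 reads in RNAi, 24 in Ov199 and 2 in NP. It was higher than in NP in both transgenic lines, with ratios of 7.08 (1.70 to 62.9, adjusted p = 0.028 by Fisher's exact test) in RNAi and 6.29 (1.56 to 54.9, adjusted p = 0.033) in Ov199, and both ratios rest on 2 reads in NP. The sequence of MIR156a, e and i that begins with G had 9 reads in RNAi, 15 in Ov199 and 3 in NP, and no difference passed.

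The 19-nt species was read in the transgenic lines and not in NP. It had 12 reads in RNAi, 16 in Ov199 and 0 in NP, where 3 reads are the limit. It was higher than in NP in RNAi (adjusted p = 0.022 by Fisher's exact test) and in Ov199 (adjusted p = 0.025). With 3 reads put in place of the 0 of NP, the fold was 2.84 in RNAi and 2.54 in Ov199. The exact 95% interval of the ratio to NP began lower, at 2.19 in RNAi and 2.02 in Ov199. Reads of this length were 4.16% of 5p reads in RNAi (2.57 to 6.64), 3.08% in Ov199 (1.96 to 4.81) and 0% in NP (0 to 3.03), and all 3 intervals overlapped.

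Reads that ran 1 base past the common end carried, as a rule, a base that the precursor does not have there. The pair is shown because it gives the main length variants with their last base, in capitals, which is T where the precursors have A.
22-nt form of the 21-nt species: ttgacagaagagagtgagcacT
21-nt form of the 20-nt species: tgacagaagagagtgagcacT
Counted from the first base of the read, the substitution was A22T in the longer form and A21T in the shorter one. The 22-nt form had 53 reads in RNAi, 52 in Ov199 and 11 in NP. It was 3.67-fold higher in RNAi (adjusted p = 2.11e-04 by Fisher's exact test) and 2.41-fold higher in Ov199 (adjusted p = 0.043) than in NP, and the fold of 1.52 between RNAi and Ov199 did not pass (adjusted p = 0.17). The 21-nt form had 4 reads in RNAi, 38 in Ov199 and 2 in NP, so that most of its reads were in Ov199. It was higher in Ov199 than in NP, with a ratio of 9.96 (2.57 to 85.2, adjusted p = 3.99e-04 by Fisher's exact test), and lower in RNAi than in Ov199, at 0.18 times its level (adjusted p = 6.17e-04).

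The share that carried the extra T differed between RNAi and Ov199 for the shorter species. Of the 20-nt species and its T form together, the T form was 5.88% in RNAi (2.31 to 14.2), 21.5% in Ov199 (16.1 to 28.1) and 8.70% in NP (2.42 to 26.8). The interval of RNAi lay below that of Ov199, and that of NP, from 23 reads, overlapped both. Of the 21-nt species and its T form, the T form was 21.3% in RNAi (16.7 to 26.8), 17.9% in Ov199 (13.9 to 22.7) and 13.4% in NP (7.66 to 22.4), with all 3 intervals overlapping. Over all 5p reads ending 1 base past the common end, T was the last base in 66 of 71 reads in RNAi, 102 of 106 in Ov199 and 16 of 19 in NP. The A of the precursor was the last base in 5, 1 and 1 of them. Where the added base arose was not tested.

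The members stood in the upper part of all rice precursors for such ends. At each of the 10 members, 15.3% to 17.5% of the reads of the most abundant arm, over the 3 libraries together, ended in such a T. Over the 201 known precursors with at least 50 reads, the members included, the median was 0.511%, the upper quartile 4.10% and the highest value 43.8%. Since the members share most of these reads, they are close to 1 observation and not 10. At the members 79.5% to 80.9% of reads ended at the most common 3′ base, beside a median of 60.1% and an upper quartile of 80.8% over the 201 precursors. For the most common 5′ end the share was 60.2% to 86.2%, beside a median of 61.3% and an upper quartile of 83.1%.

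**Figure D2:**
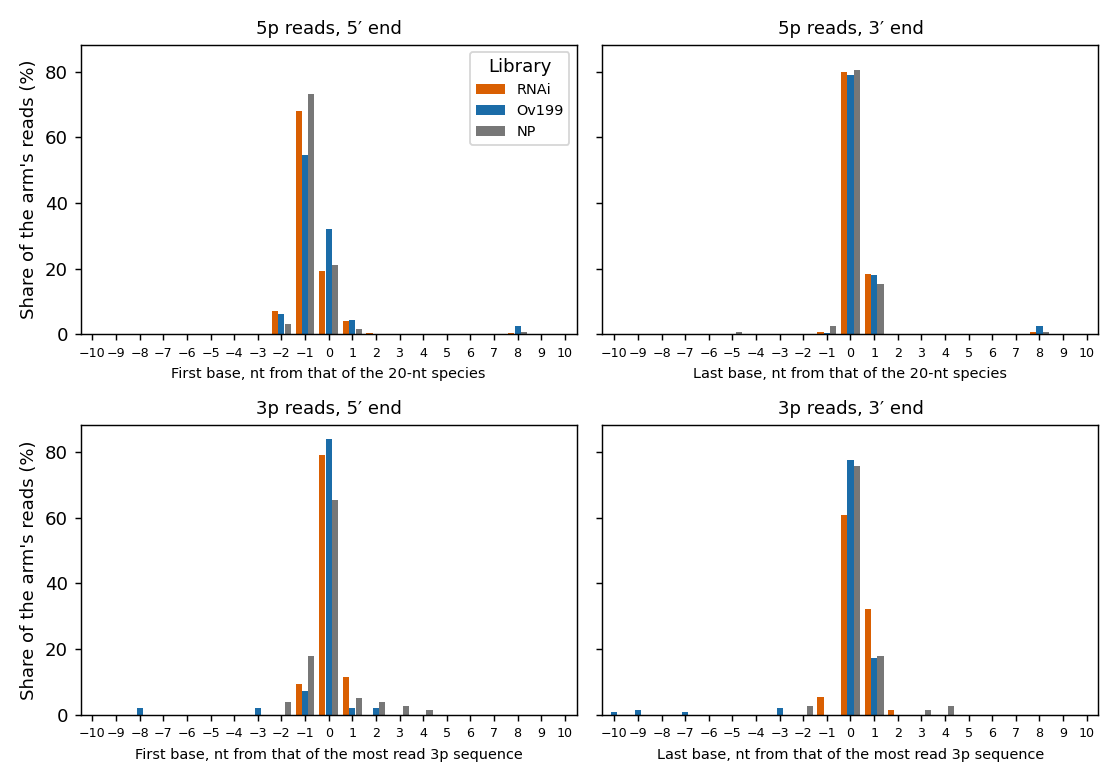
Bars give the share of reads (%) of the 5p arm (top) and the 3p arm (bottom) by the distance in nt of the first base (left) and the last base (right) from those of the 20-nt species, or of the precursor's most read 3p sequence. In the 5p arm 80.0% of reads in RNAi, 79.0% in Ov199 and 80.5% in NP ended at the common base, while the start was divided between distances of -1 and 0.

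The 2 arms had different lengths. Among 5p reads, 21 nt was the most common length, with 54.5% in RNAi, 51.8% in Ov199 and 63.4% in NP. Among 3p reads 22 nt was the most common, with 53.1% in RNAi, 60.1% in Ov199 and 53.8% in NP. A length of 23 nt took 35.4% of 3p reads in RNAi (27.7 to 43.9), 22.5% in Ov199 (16.3 to 30.1) and 28.2% in NP (19.4 to 39.0), against at most 1.82% of 5p reads. The first base separated the arms as well. It was T in 85.5% of 5p reads in RNAi, 84.4% in Ov199 and 90.2% in NP, the base that AGO1 favours. It was G in 80.8% of 3p reads in RNAi, 82.6% in Ov199 and 79.5% in NP.

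**Figure D3:**
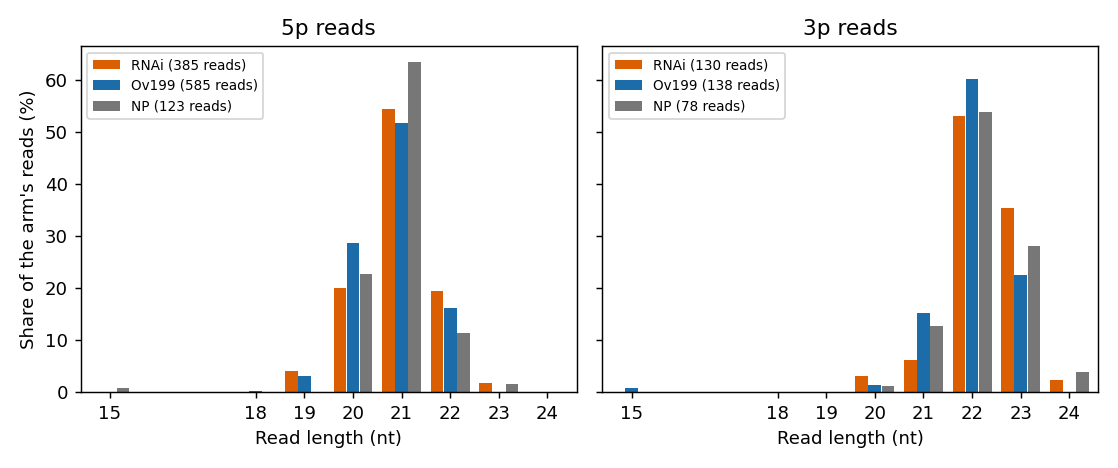
Bars give the share (%) of 5p reads (left) and of 3p reads (right) at each read length in nt, with the number of reads of each library in the legend. The 5p arm peaked at 21 nt in every library and the 3p arm at 22 nt, with 23 nt next.

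MIR156d had the most 3p reads in RNAi, while MIR156c and g, with 38, came before it in Ov199 and MIR156f and h, with 26, in NP. Its 3p arm had 54 reads in RNAi, 37 in Ov199 and 23 in NP, or 861, 393 and 466 normalized counts. RNAi was above both other libraries, with ratios of 1.85 (1.11 to 3.15) against NP and 2.19 (1.42 to 3.42) against Ov199, and Ov199 had a ratio of 0.843 (0.488 to 1.49) against NP. The 22-nt sequence of MIR156d shown above had 20 reads in RNAi, 19 in Ov199 and 8 in NP. A form 1 base longer, gctcactcctctttctgtcaccC, with its added templated C in capitals, had 16 reads in RNAi, 12 in Ov199 and 6 in NP. Taken singly, neither sequence passed the test in any pair of libraries.

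The shared 3p sequence of MIR156f, h and l did not differ beyond the threshold in any pair of libraries, while a longer form did. The 22-nt sequence had 13 reads in RNAi, 15 in Ov199 and 13 in NP. The 23-nt form, gctcacttctctttctgtcagcT, aligned at MIR156f and MIR156h but not at MIR156l, and its last base, in capitals, is templated. It had 19 reads in RNAi, 8 in Ov199 and 1 in NP. It was higher in RNAi than in NP, with a ratio of 14.9 (2.38 to 621, adjusted p = 0.0035 by Fisher's exact test), and higher in RNAi than in Ov199, by 3.29-fold (adjusted p = 0.029), a call that was lost with TMM (adjusted p = 0.051) and with the adapter-trimmed totals (adjusted p = 0.070), over a range of 0.029 to 0.070. Between Ov199 and NP the ratio was 4.19 (0.562 to 186, adjusted p = 0.43 by Fisher's exact test). Over the whole 3p arm, 32.3% of reads in RNAi (24.9 to 40.8), 17.4% in Ov199 (12.0 to 24.6) and 17.9% in NP (11.0 to 27.9) ended 1 base past the most read sequence, and the interval of RNAi lay just above that of Ov199.

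The 3p arm of MIR156b was read in Ov199 and NP and not in RNAi. It had 0 reads in RNAi, 15 in Ov199 and 5 in NP. The most read sequence, with 0, 12 and 5 reads, was lower in RNAi than in Ov199 (adjusted p = 0.030 by Fisher's exact test). Its difference between RNAi and NP did not pass (adjusted p = 0.10 by Fisher's exact test). With 3 reads put in place of the 0 of RNAi, it was 2.38-fold lower than in Ov199 and 1.93-fold lower than in NP. The exact 95% intervals of the ratios allowed smaller differences, reaching up to 0.540 against Ov199 and 0.858 against NP. Since the 5p reads of MIR156b are shared with other precursors, these few 3p reads are all that is particular to it.

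The most read 3p sequence of MIR156c and MIR156g had 20 reads in RNAi, 32 in Ov199 and 13 in NP, or 319, 340 and 263 normalized counts, and no pair of libraries passed the test. The remaining 3p arms were rare. MIR156i had 11 reads in RNAi, 9 in Ov199 and 5 in NP, MIR156j had 8, 6 and 6, and MIR156e had 2, 1 and 0. At this depth no difference was detectable in these 3 members.

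**Figure D4:**
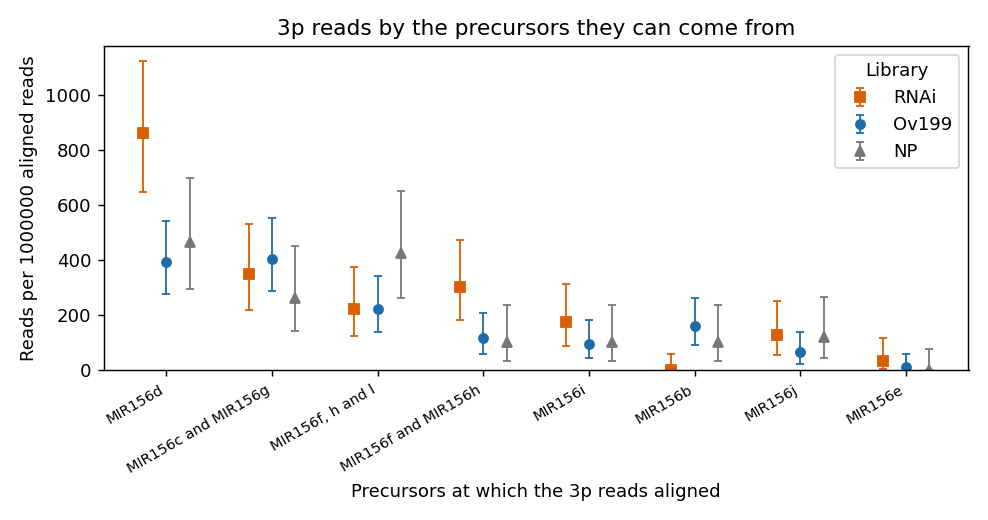
Points give reads per 1000000 aligned reads of 3p sequences, grouped by the precursors at which they aligned, with exact 95% Poisson intervals and 1 point per library. MIR156d was highest in RNAi at 861, against 393 in Ov199 and 466 in NP, and MIR156b had no read in RNAi.

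Among the 18 sequences of the family chosen by the naming rule, 9 were of the 5p arm and 9 of the 3p arm. With RNAi against NP, 6 of 14 tested were higher and 0 lower by adjusted p, beside 4.41% higher and 5.95% lower over all sequences tested. With Ov199 against NP, 6 of 16 tested were higher and 0 lower, beside 3.71% higher and 7.66% lower. With RNAi against Ov199, 1 of 17 was higher, beside 6.28%, and 2 were lower, beside 4.69%. In each comparison with NP, 5 of the 6 were the same 5p sequences: the 19-nt, 20-nt, 21-nt and 22-nt species and the 22-nt form with T. The sixth was the 23-nt 3p sequence of MIR156f and h in RNAi and the 21-nt form with T in Ov199. Sequences overlap in origin, and the naming rule took those with at least 10 reads, which can pass more readily than rarer ones. Its reads were summed over the 3 libraries, so a sequence could enter through the transgenic lines. Among those called, the 19-nt species had 0 reads in NP and the 23-nt 3p sequence 1. The 22-nt species and the 21-nt form with T had 2 each. The rule thus partly sets how many were higher or lower, and these counts are a description only.

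Summed by precursor, with a shared read counted at each of its precursors, the members fell into 2 sets. MIR156d, f, h and j, which can yield the 21-nt species, had 6074 to 6521 normalized counts in RNAi, 5852 to 6341 in Ov199 and 2493 to 3060 in NP. MIR156a, b, c, e, g and i had 1515 to 1833 in RNAi, 2496 to 2719 in Ov199 and 669 to 831 in NP. Within a set the levels differed little, since most reads are the same ones: MIR156d had 403 reads in RNAi, 558 in Ov199 and 136 in NP, and MIR156j had 381, 551 and 123. In the first set the intervals of RNAi and Ov199 overlapped, and in the second Ov199 was highest.

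All 10 members were past 2-fold higher in RNAi than in NP, with folds of 2.13 to 2.46 and a median of 2.28, beside 23.1% of all precursors past 2-fold higher and a median fold of 1.04. All 10 also passed Fisher's exact test with an adjusted p under 0.05, beside 7.76% of all precursors that were higher. In Ov199 against NP all 10 were past 2-fold higher, beside 21.9%, with folds of 2.07 to 2.34 in MIR156d, f, h and j and of 3.19 to 3.74 in the other 6, and a median over all precursors of 0.996. All 10 passed the test, beside 7.34%. In RNAi against Ov199 none was past 2-fold, beside 43% of all precursors in either direction. MIR156a, b, c, e, g and i were lower in RNAi than in Ov199 by the test, with folds of 0.60 to 0.70, beside 7.67% lower over all precursors, and MIR156d, f, h and j had folds of 1.03 to 1.08 that did not pass. With each read divided equally between its places, the count past 2-fold fell to 4 for RNAi against NP and 6 for Ov199 against NP, and 1 member was past it between RNAi and Ov199. The 10 members are thus not 10 observations of a difference, and the 5p species given above carry it. The shares over all precursors take in every precursor with a read in either library. Of 516 known precursors, 201 had at least 50 reads over the 3 libraries. Rarer ones scatter more in fold and pass the test less readily, so these shares are not matched to the members in depth.

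**Figure D5:**
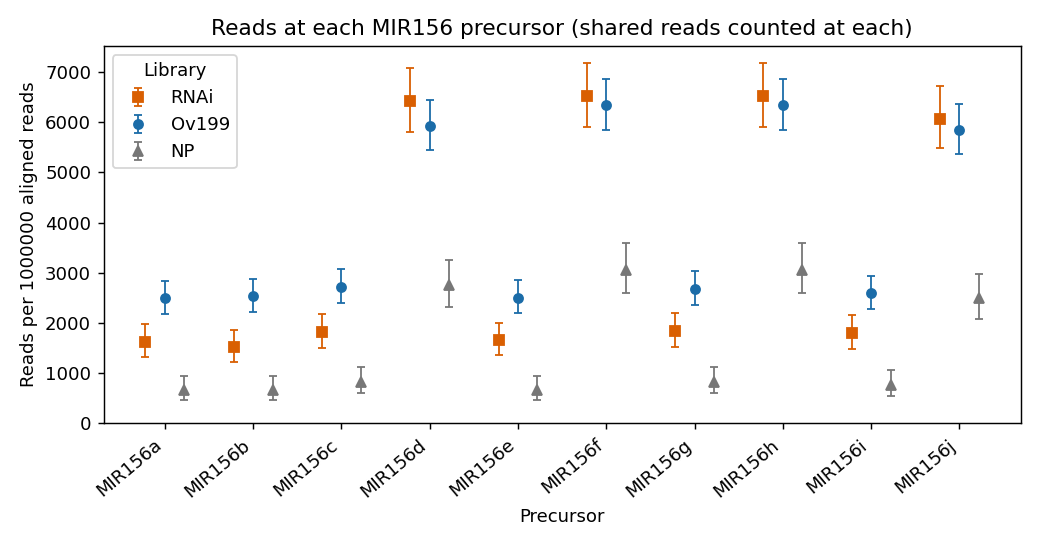
Points give reads per 1000000 aligned reads at each precursor, with exact 95% Poisson intervals and 1 point per library, where a read that aligned at several precursors is counted at each. RNAi and Ov199 lie above NP at all 10 precursors, and MIR156d, f, h and j are the 4 with the higher levels.

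Reads that aligned at 1 member and nowhere else were few and were mostly from the 3p arm. MIR156d had 56 such reads in RNAi, 39 in Ov199 and 23 in NP. MIR156b had 0, 15 and 5, MIR156i had 11, 9 and 5, and MIR156j had 9, 6 and 6. MIR156c, e and g had at most 4 in any library, and MIR156a, f and h had 0 in all 3. No statement on the level of a single precursor can therefore be made for MIR156a, f or h.

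Other precursors of the SPL and phase change pathway were read from a list of 9, of which 8 had reads. Of 7 with reads in RNAi or NP, 2 were higher in RNAi by adjusted p and 0 lower, beside 5.22% lower over all precursors. Of 8 with reads in Ov199 or NP, 1 was higher and 1 lower in Ov199, beside 9.56% lower. Between RNAi and Ov199, 3 of 8 were higher in RNAi and 0 lower, beside 11.9% higher, and the other background shares are those given for the members. With the adapter-trimmed totals MIR529a alone kept the call between RNAi and Ov199. The list is short, and MIR529b, counted beside MIR529a, shares nearly all its reads with it. These counts are therefore a description of the list.

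MIR529a, whose product shares SPL targets with miR156, had 3526 reads in RNAi, 3678 in Ov199 and 1507 in NP, far more than the miR156 family. It was 1.84-fold higher in RNAi (adjusted p = 3.63e-95 by Fisher's exact test) and 1.28-fold higher in Ov199 (adjusted p = 4.33e-15) than in NP, and 1.44-fold higher in RNAi than in Ov199 (adjusted p = 9.74e-54). For Ov199 the paper reports the other direction, with miR529a lower than in NP by sequencing and by RT-PCR, and higher in RNAi. The reads here are summed over the precursor, and the reason for the difference was not tested. MIR529b, which shares nearly all its reads with MIR529a, had 89, 80 and 33 reads and was higher in RNAi than in NP (2.11-fold, adjusted p = 0.0021 by Fisher's exact test). MIR535, a relative of miR156 and miR529 in sequence, had 170 reads in RNAi, 160 in Ov199 and 118 in NP. It did not differ in RNAi against NP beyond the threshold (1.13-fold, adjusted p = 0.67 by Fisher's exact test) and was lower in Ov199 than in NP (0.71-fold, adjusted p = 0.035), a call that no other scaling kept (adjusted p = 0.090 to 0.41). RNAi had the most normalized counts for MIR529a, MIR529b and MIR535, while NP had the fewest for the MIR529 precursors and Ov199 for MIR535.

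The other miR156 precursors were read rarely. MIR156l, whose reads are, all but 1, 3p reads shared with MIR156f and h, had 14 reads in RNAi, 22 in Ov199 and 21 in NP. MIR156k had 3, 1 and 0. The miR172 precursors, which mark the adult phase, were also rare: MIR172d had 4 reads in RNAi, 10 in Ov199 and 8 in NP, MIR172a had 0, 4 and 0, MIR172b had 0, 3 and 1, and MIR172c had none. At this depth no difference in miR172 was detectable.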

How the data were processed

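Small RNAs of 3 libraries, 1 per line, were sequenced on an Illumina HiSeq. The authors removed adapters, collapsed identical reads, mapped them onto rice precursors already known or predicted with miRDeep2, and deposited raw counts per distinct sequence, with every precursor and position it matched. Aligner settings and the genome build are not given in the sources used here, and positions in the genome were not analysed.

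Members were taken by precursor name, and reads were summed once per sequence, precursor and library. Folds used normalized count + 10, and a fold of 2 or 0.5 was the limit. Sequences were tested at 5 or more reads over both libraries. The Fisher step was run on simulated counts with counting error only, which checks the calculation and not the spread between plants. The text names all 10 members, the most read 5p sequence that they share and each member's most read 3p sequence. It also names every other family sequence with at least 10 reads, and the pathway list. Members and lists were chosen with earlier results of these data known. Alternatives were other scalings (adapter-trimmed reads, edgeR's TMM, DESeq2's size factors), pseudocounts, read filters and placements. Software was R 4.3.3 with DESeq2 1.42.0 and edgeR 4.0.16, and Python 3.11.15 with scipy 1.17.1, pandas 2.3.3, numpy 2.4.6 and matplotlib 3.10.9.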

Additional observations from a re-analysis of the deposited data

How the results depend on the processing

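No called result reversed under another scaling, pseudocount or read filter, but directions of single members did with reads at 1 precursor only. Scaled to adapter-trimmed reads, the family's fold over NP was 2.18 in Ov199, its fold in RNAi over Ov199 was 0.883, the 20-nt species in RNAi against Ov199 was at 0.575 and passed the test (adjusted p = 0.0029), and 1 member was past 2-fold in RNAi against Ov199. With TMM, the fold of the family in RNAi against Ov199 was 0.943 and that of the 20-nt species was 0.613 (adjusted p = 0.015, range over the scalings and pseudocounts 0.0029 to 0.090). Relative to aligned reads, the trimmed totals moved log2 ratios of Ov199 over NP by 0.24 and TMM by 0.13, and those of RNAi over Ov199 by -0.27 and -0.18. With all 5p reads in place of the 20-nt species, the fold of RNAi against Ov199 was 0.988. With reads divided between places, 4 members were past 2-fold with RNAi over NP, 6 with Ov199 over NP and 1 between the transgenic lines. With reads at 1 precursor only, few reads remain. Then 3 of 6 members with reads were past 2-fold between RNAi and NP, 2 higher and 1 lower in RNAi. The lower one was MIR156b, with 0 such reads in RNAi and 5 in NP. For Ov199 against NP, 2 of 6 were past 2-fold, higher in Ov199. Between the transgenic lines 6 of 7 were, 4 higher and 2 lower in RNAi. With reads of 20 to 22 nt only, the 3p share was 18.2% in RNAi, 15.8% in Ov199 and 30.1% in NP, since many 3p reads are 23 nt long. The family's fold against NP stayed between 1.73 and 2.05 in RNAi and between 1.78 and 2.18 in Ov199 over all alternatives run. Alternatives for the 21-nt species and scalings for the arms and for the other sequences and precursors named were chosen after seeing the data. The 21-nt species kept its calls. Of 282 values under a scaling for the other sequences and precursors, 8 lost their call and none gained one. The 8 were in MIR535, MIR529b and the 23-nt 3p sequence of MIR156f and h. The arms are not among the 282. With the adapter-trimmed totals and with TMM, the 3p interval of RNAi against Ov199 took in 1 and the 5p interval left 1 out. No paired analysis was possible because each line has 1 library and the labels carry no replicate numbers. Leaving out a replicate was likewise not possible. Depth limits the 3p arms of MIR156b, e, i and j, with at most 15 reads in a library, and MIR156a had none.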

Other observations

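A sequence of MIR156f and MIR156h that begins 8 bases into the 20-nt species, gAGAGTGAgcacacagcggc with its bases 2 to 8 in capitals, had 2 reads in RNAi, 15 in Ov199 and 1 in NP. The ratio of Ov199 against NP was 7.86 (1.21 to 331) and did not pass Fisher's exact test after adjustment (adjusted p = 0.12), nor did RNAi against Ov199 (adjusted p = 0.12).

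A 22-nt sequence that begins with TTTG and aligned with 1 mismatch at 5 members (C2T at MIR156b, counted from the first base of the read) had 3 reads in RNAi, 9 in Ov199 and 0 in NP. Family reads with a mismatch or an inserted or deleted base other than the added T made up 45 sequences, with 20 reads in RNAi, 48 in Ov199 and 22 in NP.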
